A study of Homo sapiens with 12 samples.

Results

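The genes of TGF-β ligands, of their receptors and of the proteins that keep the ligands latent were followed in WI-38 cells, a line of normal human lung fibroblasts, that were themselves cultured with or without TGF-β. The 10 genes were chosen by function, with earlier results of these data known. These were the ligand genes TGFB1, TGFB2 and TGFB3, the receptor genes TGFBR1 and TGFBR2, the co-receptor genes TGFBR3 and ENG, and the latent TGF-β binding protein genes LTBP1, LTBP2 and LTBP3. They are 10 of the 25702 genes in the count table, and 9 of them, all but TGFB3, were among the 9490 genes tested.

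Confluent flasks were treated with 2 ng/mL TGF-β or given fresh medium, and RNA was taken after 1 day (D1+ TGF-β and D1, passages 2 to 3). Of the flasks kept, 1 treated and 1 untreated were each used to seed fresh flasks, which were held until day 20 with the medium, with or without TGF-β, renewed every 2 days (D20+ TGF-β and D20, passages 5 to 6). RNA of 3 of the 5 flasks of each condition was sequenced, giving 12 libraries, and the study asks which genes differ early and late after TGF-β. The 3 flasks of a D20 condition came from the same parent flask, so p-values measure the spread between sister flasks of 1 cell line. Flasks were confluent when treatment began, and the seeding aimed for about 90% confluence at day 20. Days in culture, passage, reseeding and any difference in cell density cannot be told apart in any comparison of D20 with D1. Treated and untreated D20 flasks had different parents, so TGF-β and the parent flask cannot be told apart in D20+ TGF-β vs D20. This holds also for the difference between the D20 and D1 responses.

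TGF-β is secreted as a dimer that stays non-covalently bound to its own propeptide, and LTBP1 and LTBP3 are covalently joined to that propeptide and hold the latent complex in the matrix. Proteases, integrins and other factors release the active dimer, which binds the type II receptor TGFBR2, and TGFBR2 then phosphorylates the type I receptor TGFBR1, which activates SMAD2 and SMAD3. In fibroblasts the pathway is known for driving the myofibroblast state, with collagen and smooth muscle actin.

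The 12 libraries held 8674488 to 18286197 counts each. All 10 fibroblast markers, COL1A1, VIM and PDGFRA among them, passed the filter on low counts (at least 10 cpm in at least 6 libraries, cpm being counts after scaling all libraries to equal size). Markers of other cell types were mostly at or near 0. CDH5, KRT5, CD3E and LYZ had no read, and the highest library held 0.303 cpm of PECAM1, 0.522 cpm of EPCAM and 0.191 cpm of PTPRC. Of 6 endothelial markers TEK alone passed the filter, and the summed endothelial level, nearly all of it TEK, was 45.5 to 78.8 cpm at D1 and 219 to 247 at D20 without TGF-β, and 34.4 to 40.1 and 76.8 to 149.6 with it. Of the smooth muscle and pericyte markers 3 of 5 passed (RGS5, CNN1 and LMOD1), with MYH11 at no more than 1.17 cpm and DES at 0.699, and the sum of the 5 was 112 to 114 cpm at D1 and 178 to 196 at D20 without TGF-β, and 148 to 161 and 92.9 to 151 with it. With TGF-β at D20, LMOD1 and CNN1 were lower (log2 fold changes -2.24 and -0.44) and RGS5 higher (1.88, with overlapping flasks). All 3 passed an adjusted p of 0.01 in edgeR. At D1, CNN1 alone of these 3 passed, as higher (1.21). The part of these markers in the results was not tested. Of the epithelial markers KRT8, KRT18 and KRT19 passed, and of the immune markers CD68. Each library was made from the RNA of many cells, so fewer cells with a transcript and less of it per cell cannot be told apart. D1 replicate 2 stood apart from its sisters (mean distance of 32.6 in log2 cpm over all genes tested, against 12.8 to 28.6 for the 11 others). D20+ TGF-β replicate 3 also stood apart, at 28.3 from its nearest library, while its sisters were 13.7 from each other. Results that rest on either flask are given with and without it.

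Per kilobase of transcript, LTBP1 was the most abundant of the 10 genes in all 4 conditions, at 171 ± 16.5 cpm per kilobase (mean ± SD, n = 3) at D1 and 175 ± 21.4 at D20+ TGF-β. TGFB3 was the least abundant in all 4, at 0.318 to 0.559 cpm per kilobase on average. In untreated flasks TGFBR2, ENG and LTBP2 followed LTBP1, in that order on both days and without overlap of flasks. With TGF-β, LTBP2 stood second on both days, ahead of TGFBR2 and ENG, and at D20+ TGF-β its flasks overlapped those of LTBP1. TGFB2 stood seventh at D20, where its flasks lay above those of TGFBR1 and TGFBR3, and ninth in the other conditions. At D1 the flasks of TGFB1 overlapped those of LTBP3, and those of TGFBR1 overlapped TGFBR3, and at D1+ TGF-β those of TGFBR3 overlapped TGFB2.

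**Figure D1:**
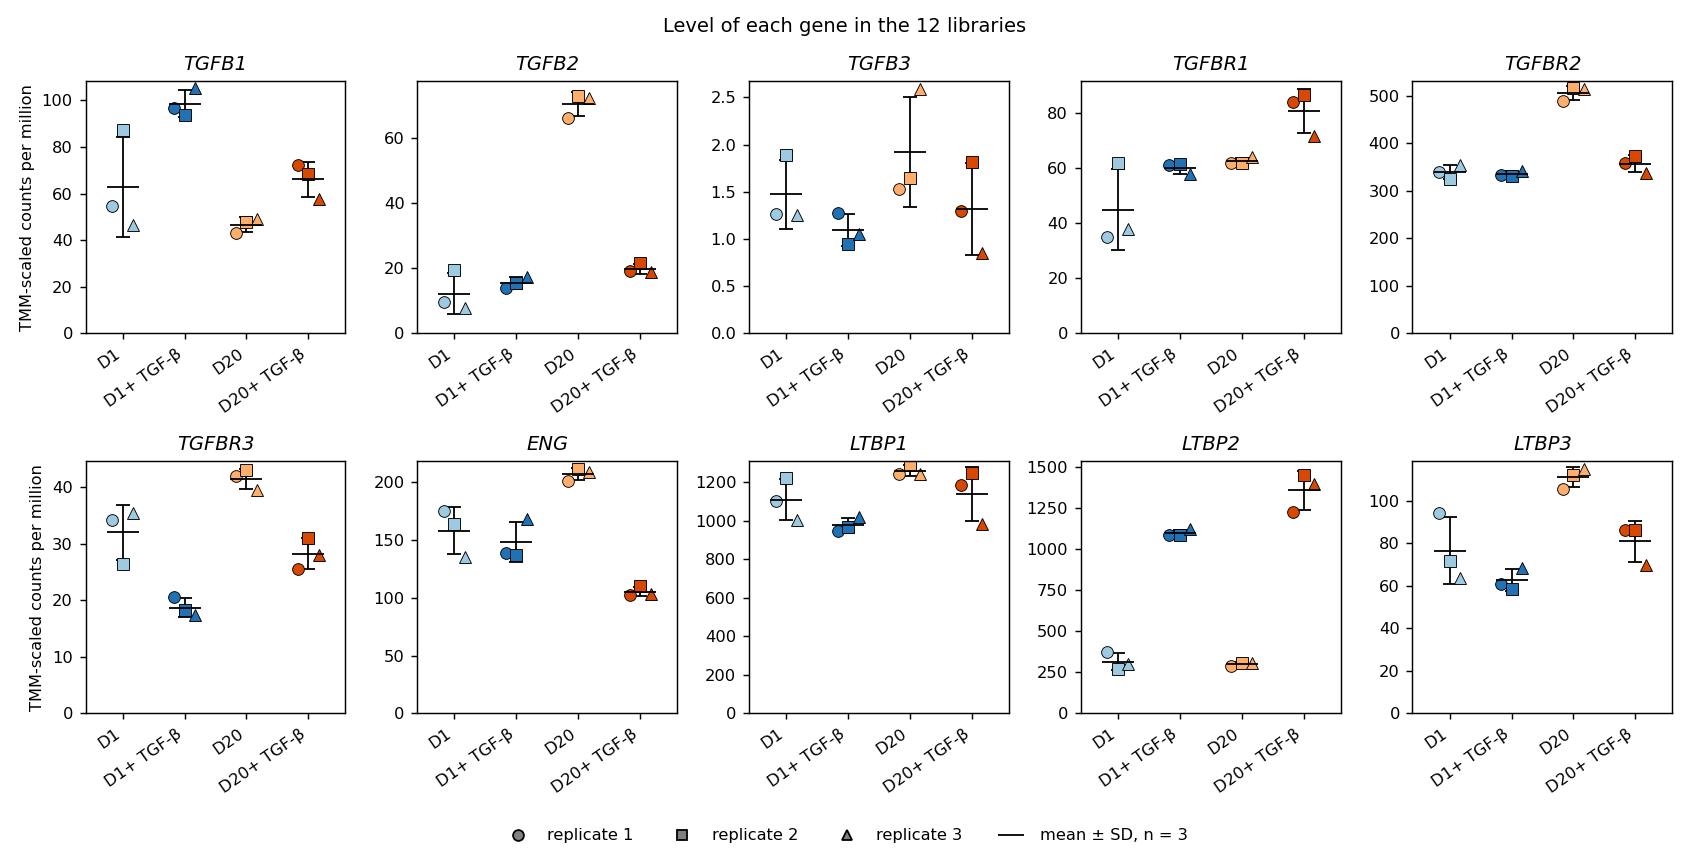
Level of each of the 10 genes in each of the 12 libraries, in TMM-scaled cpm on a linear axis that starts at 0. Symbols are the 3 replicates of a condition and black lines the mean ± SD (n = 3). LTBP2 is high in both TGF-β conditions, TGFB2 is high at D20 alone, and the square of D1 lies apart for TGFB1, TGFB2 and TGFBR1.

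Of the 9 genes tested, 2 passed an adjusted p of 0.01 in D1+ TGF-β vs D1, where 13.4% of all genes tested did (6.89% as higher). LTBP2 was higher and TGFBR3 lower, and the median log2 fold change of the 9 was -0.02, as it was over all genes tested (-0.02). In D20+ TGF-β vs D20, 5 of 9 passed, against 27.5% of all genes tested. LTBP2 was higher, and TGFB2, TGFBR2, TGFBR3 and ENG were lower, 4 of 9 against 14.7% of all genes called lower, with a median of -0.46 over the 9 genes and 0.01 over all. In D20 vs D1, 4 of 9 passed, all higher (TGFB2, TGFBR2, ENG and LTBP3), against 36.4% called in either direction and 18.9% called higher. Without D20 replicate 2 or D20 replicate 3 this count was 2. Between the treated conditions (D20+ TGF-β vs D1+ TGF-β) 2 of 9 passed, TGFBR3 higher and ENG lower, against 34.8% of all genes tested, and the count was 4 without D1 replicate 1 or D20+ TGF-β replicate 3 and 5 without D1 replicate 2. The difference between the D20 and the D1 response passed for 3 of 9, TGFB2, TGFBR2 and ENG, all lower at D20, against 10.4% of all genes tested and 5.87% called lower. These comparisons share conditions, so the D20 flasks enter D20+ TGF-β vs D20, D20 vs D1 and the difference of responses alike. The shares over all genes tested given here are of the fit of all 12 libraries and can differ in fits without a flask.

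**Figure D2:**
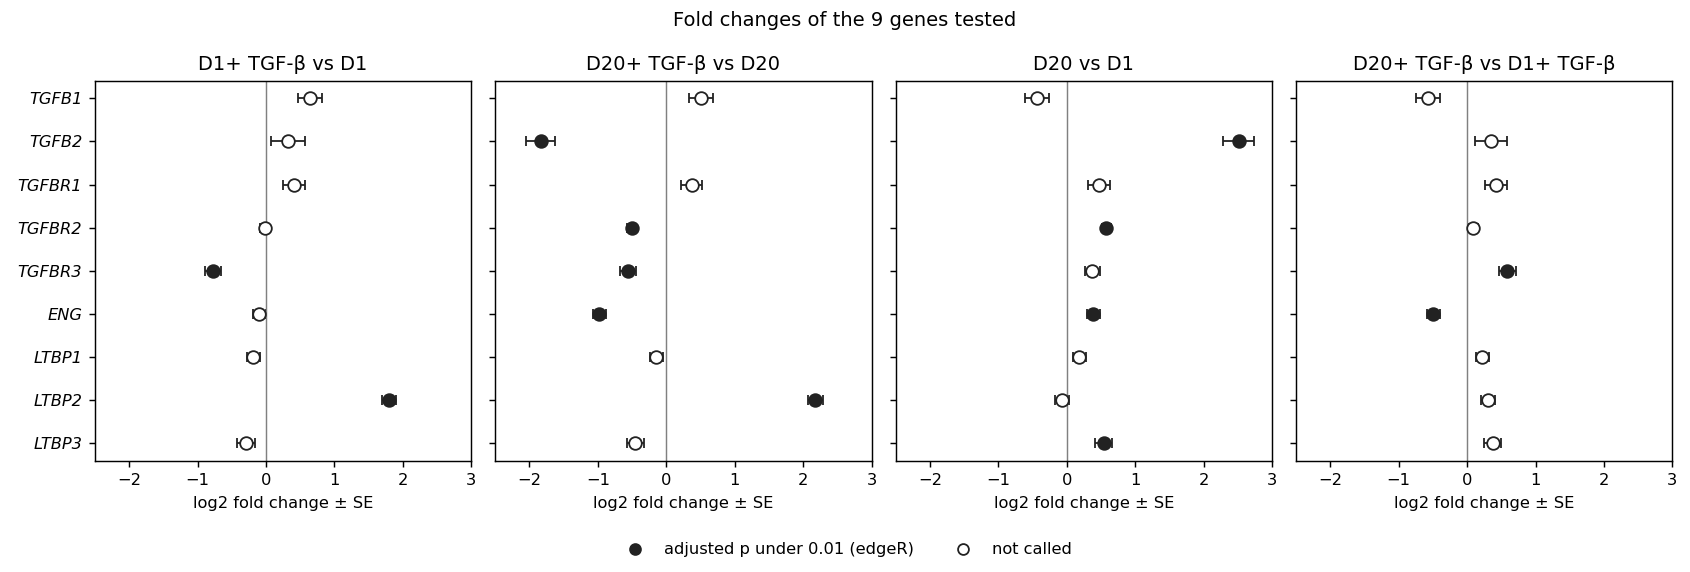
Log2 fold change ± SE of the 9 genes tested in the 4 comparisons, with filled circles for an adjusted p under 0.01 (edgeR) and open circles for the rest. LTBP2 lies far to the right in both comparisons of TGF-β with none, and TGFB2 lies at 2.51 in D20 vs D1 and at -1.84 in D20+ TGF-β vs D20.

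The 3 ligand genes encode dimeric cytokines that signal through the same receptors, and TGFB1 and TGFB2 moved in unlike ways. The 250 bases before their RefSeq starts are shown because the data separate them, and capitals mark every match, on either strand, to a set of 7 motifs. Of these, CAGAC is the core of the element that Smad proteins bind, TGANTCA is the site known for the AP-1 factors, and the cAMP response element is TGACGTCA, the palindrome bound by CREB. The others are GGAATG, known as the site of TEAD factors, the E-box, here searched as the palindrome CACGTG, the GC box of Sp factors, searched as its core GGGCGG, and the TATA box of core promoters, searched as TATAAA alone. The sequences are RefSeq's for GRCh38.p14, read 5′ to 3′ on the gene's own strand, and each matched GRCh37 at a single place, chr19:41859828-41860077 on the minus strand for TGFB1 and chr1:218518428-218518677 on the plus strand for TGFB2.
TGFB1: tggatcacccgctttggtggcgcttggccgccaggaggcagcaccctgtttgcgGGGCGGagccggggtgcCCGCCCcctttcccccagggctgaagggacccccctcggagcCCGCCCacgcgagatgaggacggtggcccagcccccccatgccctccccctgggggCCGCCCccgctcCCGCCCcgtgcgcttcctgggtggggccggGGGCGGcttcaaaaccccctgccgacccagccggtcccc
TGFB2: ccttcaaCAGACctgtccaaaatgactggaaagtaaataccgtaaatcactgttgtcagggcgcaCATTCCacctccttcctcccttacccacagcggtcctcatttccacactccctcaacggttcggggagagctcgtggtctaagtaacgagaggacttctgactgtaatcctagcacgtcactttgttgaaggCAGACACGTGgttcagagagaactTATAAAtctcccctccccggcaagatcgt
The TGFB1 window held 76.8% G and C, with 6 GC boxes and no match to the other motifs. The TGFB2 window held 50.4% G and C, below the median of 58.0% over 35116 promoters of that length, with a TATA box 29 to 24 bases before the start. It also held an E-box at 49 to 44 bases, CAGAC at 53 to 49 (sharing 1 base with the E-box) and at 243 to 239, and GGAATG on the other strand at 185 to 180. Over all those promoters TATAAA occurred in 10.7%, CACGTG in 6.34%, CAGAC in 38.0%, GGAATG in 11.9% and GGGCGG in 42.6%. These matches describe the sequence and say nothing of which factors were bound.

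TGFB2 (chr1:218518678-218617961, GRCh37) was high in untreated flasks at day 20 and low in every other condition. The D20 flasks held 66.3, 73.1 and 72.3 cpm, and those of D20+ TGF-β 19.1, 21.6 and 18.7. At D1 the flasks held 9.46, 19.3 and 7.61 cpm, and at D1+ TGF-β 13.8, 15.4 and 17.3. No flask of another condition came near D20, and the D1 and D1+ TGF-β flasks overlapped. TGFB2 was higher at D20 than at D1 by 2.51 on the log2 scale (SE 0.23, adjusted p = 1.33e-06), or 5.70-fold. With TGF-β it was 3.58-fold lower at D20 (log2 fold change -1.84, SE 0.22, adjusted p = 2.22e-05), while D1+ TGF-β vs D1 gave 0.32 (SE 0.25, adjusted p = 0.362). Without D1 replicate 2 that D1 value was 0.87 (adjusted p = 3.00e-04) and passed, and D20 vs D1 gave 3.05. The difference between these responses was -2.16 (SE 0.33, adjusted p = 6.16e-04). Between the treated conditions, where the flasks did not overlap, the log2 fold change was 0.35 (SE 0.24, adjusted p = 0.240). TEK was also highest at D20 and lower with TGF-β there, as given above, while PECAM1, CDH5 and EMCN were at or near 0 in every library. The antisense gene TGFB2-AS1 overlaps TGFB2 and the window shown, and it is not known whether the counting used strand.

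TGFB1 (chr19:41807492-41859827) lay higher with TGF-β on both days, but not past the threshold in edgeR. At D1 its flasks held 54.7, 87.2 and 46.3 cpm, and at D1+ TGF-β 96.9, 93.9 and 105. At D20 they held 42.9, 47.6 and 49.1 cpm, and at D20+ TGF-β 72.2, 68.5 and 57.5. Every treated flask lay above every untreated flask of its day, and D1 replicate 2 lay close to the treated ones. The log2 fold change was 0.64 at D1 (SE 0.17, adjusted p = 0.0154) and 0.51 at D20 (SE 0.18, adjusted p = 0.0344). Without D1 replicate 2 these were 0.97 (adjusted p = 2.17e-05) and 0.51 (adjusted p = 5.30e-04), and both passed. On each day 4 of 22 alternatives called TGFB1, the fit without the filter on low counts among them (adjusted p = 0.00254 at D1 and 0.00761 at D20), and DESeq2 called it at D1 (adjusted p = 0.00196). Limma-voom on the 48 lanes was among them on both days, but lanes repeat the same RNA and are not replicates. For D20+ TGF-β against D1+ TGF-β the log2 fold change was -0.57 (adjusted p = 0.0142), and the flasks did not overlap. It passed in 7 of 22 alternatives, the fit on the lanes among them, and also without D1 replicate 2 (-0.57, adjusted p = 1.73e-04). TGFB1 overlaps CCDC97, HNRNPUL1 and TMEM91 on the other strand.

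TGFB3 (chr14:76424440-76449354) had few reads. Its 12 libraries held 9 to 43 reads each, or 0.846 to 2.59 cpm, and the flasks of the conditions overlapped in every comparison. Fitted without the filter on low counts, it had log2 fold changes of -0.50 (adjusted p = 0.427) at D1 and -0.57 (adjusted p = 0.216) at D20 for TGF-β, and no comparison called it.

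Per length, TGFB1 made up most of the ligand transcripts in every condition. Its share of the summed ligand level was 90.3% ± 1.05 (SD, n = 3) at D1 and 57.1% ± 0.359 at D20 without TGF-β, and 92.3% ± 0.381 and 86.3% ± 1.26 with it. The TGFB2 share was 7.96% ± 1.22 at D1 and 41.0% ± 0.833 at D20 without TGF-β, and 6.87% ± 0.522 and 12.3% ± 1.17 with it, so that the D20 flasks stood apart from all others. The order at D20 rests on the correction for length, since TGFB2 transcripts are the longer, and in plain counts TGFB2 took 59.3% and TGFB1 39.1%. TGFB3 took 0.829% to 1.89% on average. Without TGF-β the summed ligand level was 25.1 ± 8.94 cpm per kilobase at D1 and 29.3 ± 1.89 at D20. With TGF-β it was 38.4 ± 2.33 and 27.5 ± 2.97. At D20 the sums with and without TGF-β overlapped, at 24.1 to 29.6 against 27.2 to 30.8. At D1 they did not, at 36.7 to 41.1 against 18.3 to 35.2.

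**Figure D3:**
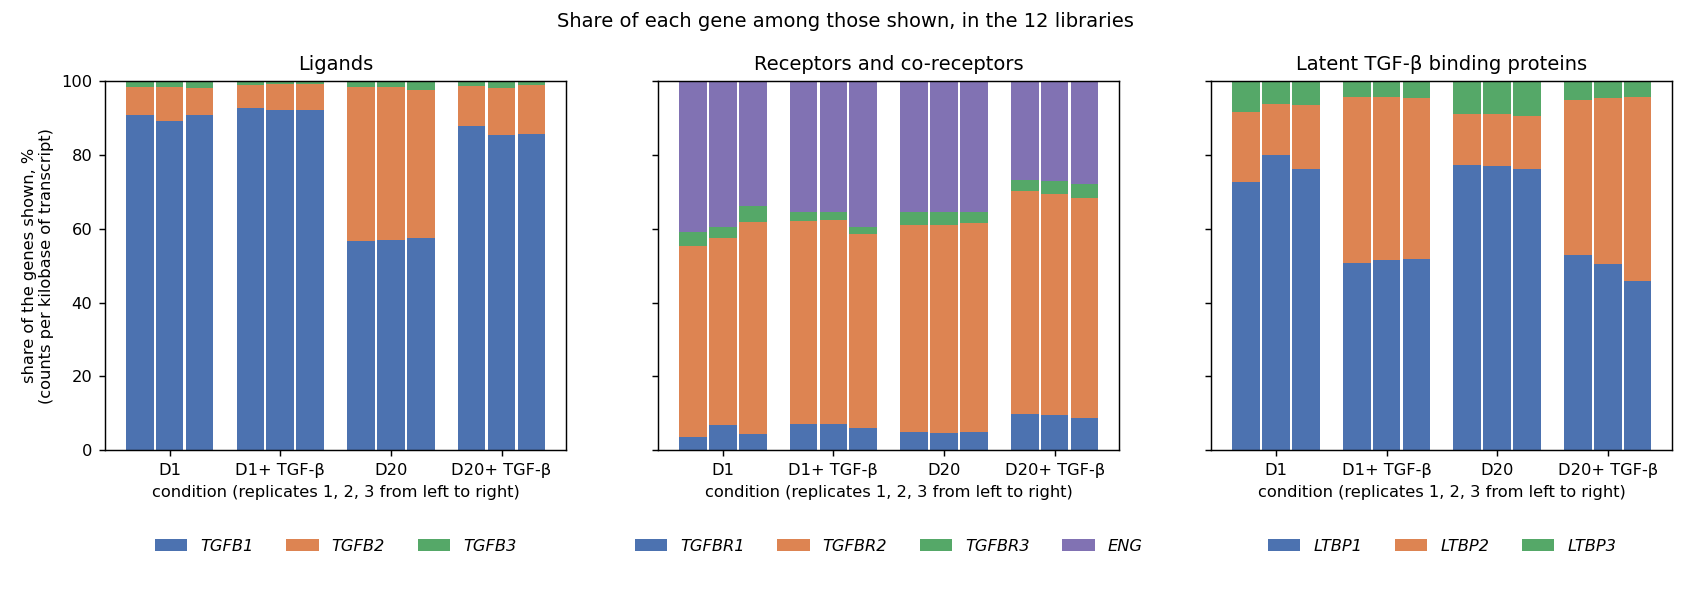
Share of each gene in the summed level of the genes shown in its panel, in percent of counts per kilobase of transcript (LTBP4 is not in the LTBP panel), for each of the 12 libraries (replicates 1 to 3 from left to right within a condition). TGFB2 takes 40.1% to 41.6% of the ligands in the D20 flasks and no more than 13.2% elsewhere, and LTBP2 takes 41.9% to 49.9% of the sum of LTBP1, LTBP2 and LTBP3 with TGF-β and no more than 19.0% without.

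Among the receptors, TGFBR2, the ligand-binding kinase, and the co-receptor ENG were lower with TGF-β than without it at D20 and did not pass at D1. TGFBR2 (chr3:30648093-30735634) held 489, 516 and 513 cpm in the D20 flasks and 357, 374 and 338 cpm in the D20+ TGF-β flasks. At D1 it held 339, 324 and 354 cpm, and at D1+ TGF-β 332, 331 and 341. The D20 flasks lay above all 9 others. It was 1.42-fold lower with TGF-β at D20 (log2 fold change -0.51, SE 0.07, adjusted p = 4.74e-05) and 1.49-fold higher at D20 than at D1 (0.58, SE 0.07, adjusted p = 1.02e-05). In D1+ TGF-β vs D1 the log2 fold change was -0.02 (SE 0.07, adjusted p = 0.874). Between the treated conditions it was 0.09 (SE 0.07, adjusted p = 0.275), and the flasks overlapped. The difference of responses was -0.49 (SE 0.09, adjusted p = 0.00252), with adjusted p-values up to 0.0105 when D20 replicate 2 or D20 replicate 3 was left out, which ends that call.

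ENG (chr9:130577292-130616937) encodes endoglin, a co-receptor best known from endothelium and also present on fibroblasts. It held 202, 212 and 209 cpm at D20 and 103, 110 and 103 cpm at D20+ TGF-β, against 175, 164 and 136 at D1 and 139, 137 and 168 at D1+ TGF-β. The D20 flasks were the highest and the D20+ TGF-β flasks the lowest of the 12, while the D1 and D1+ TGF-β flasks overlapped. ENG was 1.97-fold lower with TGF-β at D20 (log2 fold change -0.98, SE 0.10, adjusted p = 5.11e-06), with -0.10 (adjusted p = 0.510) at D1 and a difference of -0.88 (SE 0.14, adjusted p = 7.48e-04). It was also lower at D20+ TGF-β than at D1+ TGF-β (-0.49, SE 0.10, adjusted p = 0.00110). Its rise from D1 to D20 (0.39, SE 0.10, adjusted p = 0.00440) did not pass in 7 of 22 alternatives, among them those without D1 replicate 3 or without any 1 of the D20 flasks, where the adjusted p reached 0.0182. TEK moved the same way at D20, with the other endothelial markers at no more than 1.52 cpm (VWF).

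TGFBR3 (chr1:92145900-92371892), which encodes betaglycan, a co-receptor that presents ligand and is needed most for TGF-β2, fell with TGF-β on both days. At D1 the flasks held 34.2, 26.5 and 35.5 cpm, and at D1+ TGF-β 20.6, 18.3 and 17.3. At D20 they held 42.0, 43.0 and 39.6 cpm, and at D20+ TGF-β 25.6, 31.1 and 28.0. No treated flask reached an untreated flask of its day. The log2 fold change was -0.77 at D1 (SE 0.12, adjusted p = 3.80e-04) and -0.56 at D20 (SE 0.11, adjusted p = 0.00131), and the difference of 0.21 (SE 0.16, adjusted p = 0.381) did not pass. Without D20+ TGF-β replicate 1 the D20 value was -0.47 with an adjusted p of 0.0112. At D20+ TGF-β it was higher than at D1+ TGF-β by 0.59 (SE 0.12, adjusted p = 0.00122), and D20 vs D1 gave 0.38 (SE 0.11, adjusted p = 0.0120).

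TGFBR1 (chr9:101866320-101916474), the signalling kinase, passed in no comparison with edgeR on all 12 libraries. At D1 its flasks held 34.9, 61.9 and 37.8 cpm, and with TGF-β 60.9, 61.4 and 57.6. At D20 they held 61.8, 61.7 and 63.9 cpm, and with TGF-β 83.8, 86.5 and 71.6. D1 replicate 2 alone among the D1 flasks lay at the level of D1+ TGF-β and D20. The log2 fold change was 0.41 at D1 (SE 0.16, adjusted p = 0.0816) and 0.37 at D20 (SE 0.16, adjusted p = 0.0774) for TGF-β, and 0.47 (SE 0.16, adjusted p = 0.0261) for D20 vs D1. Without D1 replicate 2 these were 0.73, 0.38 and 0.79, and all 3 passed. Between the treated conditions, where the flasks did not overlap, the log2 fold change was 0.43 (SE 0.16, adjusted p = 0.0392). That comparison also passed without D1 replicate 2 (0.43, adjusted p = 2.57e-04).

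Per length, TGFBR2 stood above TGFBR1 in every library, by a ratio of 11.6 ± 3.57 at D1 and 11.6 ± 0.334 at D20 without TGF-β, and of 8.01 ± 0.419 and 6.35 ± 0.355 with it (mean ± SD, n = 3). At D20 the ratios with and without TGF-β did not overlap, from 6.11 to 6.76 against 11.3 to 12.0. At D1 they overlapped, since D1 replicate 2 had the lowest ratio of its condition (7.50). ENG made up 27.3% ± 0.674 of the receptor and co-receptor level at D20+ TGF-β, and 35.5% ± 0.0758 at D20, 36.8% ± 2.43 at D1+ TGF-β and 38.2% ± 3.71 at D1.

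LTBP2 (chr14:74964886-75079081) showed the largest rise with TGF-β of the 9 genes tested, on both days. LTBP2 is a microfibril-associated member of the LTBP family and, unlike LTBP1 and LTBP3, is not known to carry latent TGF-β. At D1 its flasks held 375, 272 and 299 cpm, and at D1+ TGF-β 1084, 1082 and 1118. At D20 they held 289, 307 and 304 cpm, and at D20+ TGF-β 1224, 1449 and 1392. The lowest treated flask lay far above the highest untreated flask, and the untreated flasks of the 2 days overlapped. LTBP2 rose 3.47-fold at D1 (log2 fold change 1.80, SE 0.11, adjusted p = 1.35e-07) and 4.52-fold at D20 (2.18, SE 0.11, adjusted p = 1.03e-08). The difference of 0.38 (SE 0.15, adjusted p = 0.0862) did not pass. D20 vs D1 gave -0.07 (SE 0.11, adjusted p = 0.594). The comparison of the treated days gave 0.31 (SE 0.10, adjusted p = 0.0251), and passed without D1 replicate 2 (0.31, adjusted p = 0.00645). Over 22 alternatives the D1 rise stayed between 1.71 and 1.94 and the D20 rise between 2.12 and 2.27, and every one passed.

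The part of the LTBP2 promoter window that lies outside every annotated exon of the gene is shown for its place before the gene that rose most, chr14:75079082-75079190 in GRCh37 on the minus strand, from 250 to 142 bases before the RefSeq start. The 141 bases nearer the start lie in the first exon of another annotated transcript and are not shown. Capitals mark GC boxes, on the other strand.
LTBP2: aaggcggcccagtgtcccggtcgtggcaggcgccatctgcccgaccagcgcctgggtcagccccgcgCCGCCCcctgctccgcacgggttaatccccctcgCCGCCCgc
The whole 250-base window held 3 GC boxes, 2 of them in the stretch shown, 68.8% G and C, and no match to the other motifs searched.

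LTBP1 (chr2:33172020-33624576), on average the most abundant per kilobase of the 3 LTBP genes followed here, passed in no comparison with edgeR on all 12 libraries. In plain cpm it stood below LTBP2 with TGF-β, at 977 against 1095 on average at D1 and 1138 against 1355 at D20. Its 12 libraries ranged from 944 to 1291 cpm, the means were 1109 ± 107 at D1 and 1259 ± 27.2 at D20 without TGF-β and 977 ± 38.3 and 1138 ± 139 with it, and its log2 fold changes for TGF-β were -0.18 (SE 0.10, adjusted p = 0.179) at D1 and -0.15 (SE 0.09, adjusted p = 0.240) at D20. LTBP3 (chr11:65306030-65326401) held 94.3, 71.9 and 63.6 cpm at D1, and 60.9, 58.7 and 68.5 there with TGF-β. At D20 it held 106, 112 and 115 cpm, and 86.5, 86.3 and 69.8 with TGF-β. The D20 flasks were the highest. LTBP3 rose from D1 to D20 by 0.54 on the log2 scale (SE 0.13, adjusted p = 0.00289), a call lost without D1 replicate 3, D20 replicate 2 or D20 replicate 3 (adjusted p up to 0.0143). With TGF-β at D20 the log2 fold change was -0.46 (SE 0.13), and the adjusted p of 0.0101 lay just past the threshold of 0.01. In 9 of 22 alternatives this fall was called, among them DESeq2, limma-voom on the 12 libraries, the fit without the filter and that without any 1 of the D1 flasks. The D1 flasks are not part of this comparison and enter only through the shared spread. Limma-voom on the 48 lanes, which repeat the same RNA, was also among the 9. Without D20+ TGF-β replicate 3 the value was -0.36 (edgeR, adjusted p = 0.0379) and did not pass.

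LTBP2 took a larger share of the summed level of LTBP1, LTBP2 and LTBP3 with TGF-β, at 44.2% ± 0.605 against 16.7% ± 2.72 without it at D1 and 45.6% ± 4.01 against 14.1% ± 0.257 at D20 (mean ± SD, n = 3). LTBP1 made up 51.3% ± 0.487 and 49.7% ± 3.62 with TGF-β and 76.3% ± 3.67 and 76.8% ± 0.569 without. The ranges with and without TGF-β did not overlap on either day. LTBP4, which held 72.8 to 190 cpm on average and so more counts than LTBP3 in every condition, is not part of this sum. The summed level of the 3 genes was 224 ± 17.8 cpm per kilobase at D1 and 252 ± 5.50 at D20 without TGF-β, and 293 ± 9.13 and 352 ± 26.1 with it.

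D1 replicate 2 carried much of the spread of the D1 group. Without it, 5 of 9 genes passed in D1+ TGF-β vs D1, where 19.8% of all genes tested then did, with TGFB1 (0.97), TGFB2 (0.87, adjusted p = 3.00e-04) and TGFBR1 (0.73) higher beside LTBP2 (1.71), and TGFBR3 lower (-0.89). In D20+ TGF-β vs D20, which holds no D1 flask, 8 of 9 passed against 34.5% of all genes tested. There the log2 value of TGFB1 was 0.51 with and without that flask, while its SE was 0.18 with it and 0.09 without, the spread being estimated over all libraries. The difference of responses still passed for TGFB2 (-2.70), TGFBR2 (-0.46) and ENG (-0.91). With D1 replicate 1 or D1 replicate 3 left out instead, TGFB1, TGFB2 and TGFBR1 did not pass in D1+ TGF-β vs D1. Their log2 values were then 0.55 and 0.47 for TGFB1, 0.17 and 0.083 for TGFB2, and 0.26 and 0.30 for TGFBR1. Without D20+ TGF-β replicate 3 the counts were the same as with it except between the treated days, where LTBP1 (0.32, adjusted p = 0.00696) and LTBP3 (0.47, adjusted p = 0.00824) also passed. What set D1 replicate 2 and D20+ TGF-β replicate 3 apart was not tested.

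**Figure D4:**
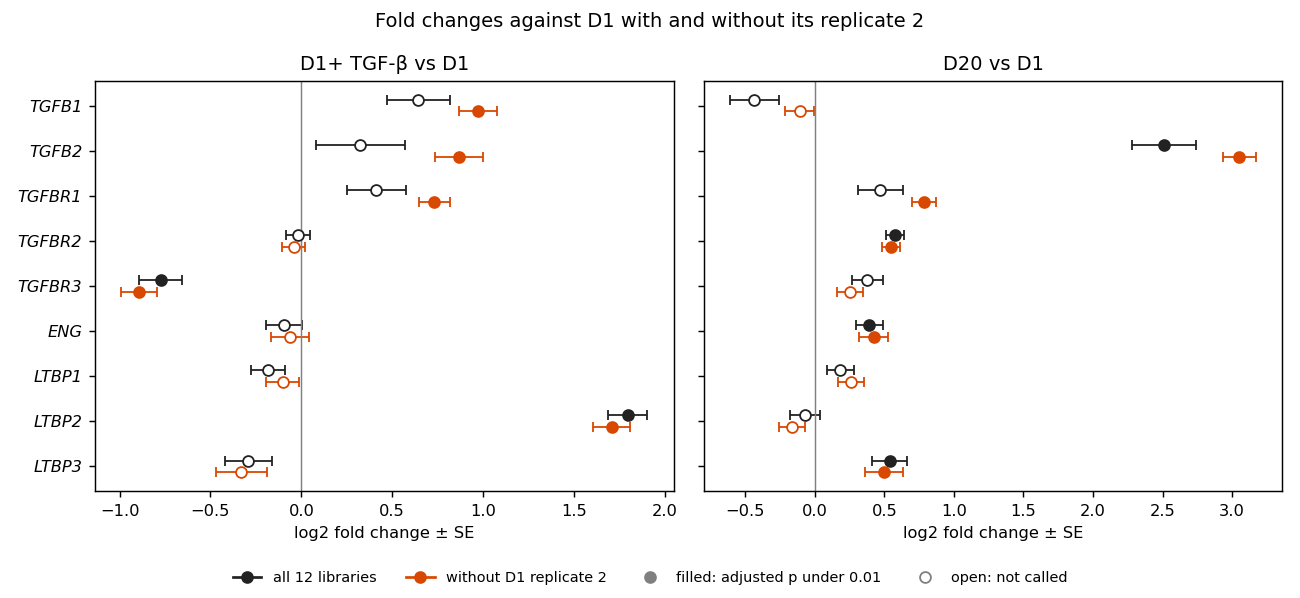
Log2 fold change ± SE of the 9 genes tested in D1+ TGF-β vs D1 and D20 vs D1, with all 12 libraries (black) and without D1 replicate 2 (orange), filled where the adjusted p is under 0.01. TGFB1, TGFB2 and TGFBR1 move to the right in both panels without that flask, and the other genes stay within about 1 SE of their value.

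The surrounding pathway was described with 55 further genes in 6 lists, of which 50 were tested. These lists were chosen with earlier results of these data known, so their shares only describe the genes listed. In D1+ TGF-β vs D1, 17 of the 50 passed (15 higher, 2 lower), or 34% against 13.4% of all genes tested, with a median log2 fold change of 0.20 against -0.02 over all genes tested. In D20+ TGF-β vs D20, 19 passed (9 higher, 10 lower), or 38% against 27.5%, with a median of -0.07 against 0.01. Of 9 textbook target genes, 5 passed at D1, all higher, and 1 at D20, and the difference of responses was called for 5, all lower at D20, against 13.4%, 27.5% and 10.4% of all genes tested. ACTA2, which encodes smooth muscle actin, led these at D1, at 754 ± 78.0 against 180 ± 52.0 cpm (log2 fold change 2.07, SE 0.17, adjusted p = 2.28e-06). At D20 it held 309 ± 36.8 against 282 ± 9.93 cpm (0.13, SE 0.17, adjusted p = 0.554), a response smaller by 1.94 (adjusted p = 1.23e-04). COL1A1, a chain of collagen I, was the target gene called at D20, at 7323 ± 659 against 3697 ± 182 cpm (0.99, SE 0.12, adjusted p = 2.39e-05).

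Among 8 tested genes of latency and matrix storage, BGN, a small proteoglycan that binds TGF-β, rose most on both days, by 1.68 (SE 0.12, adjusted p = 4.69e-07) and 2.53 (SE 0.12, adjusted p = 7.40e-09). TGM2, a crosslinking enzyme of the matrix, fell most at D20, from 1087 ± 173 to 323 ± 126 cpm (-1.75, SE 0.32, adjusted p = 6.53e-04). Of 9 tested genes of ligand activation, 4 passed on each day (44.4%, against 13.4% of all genes tested at D1 and 27.5% at D20). ITGB3, an integrin subunit of a receptor that binds latent TGF-β, rose at D1 (1.91, SE 0.20, adjusted p = 1.61e-05) and fell at D20 (-1.26, SE 0.20, adjusted p = 2.18e-04), a difference of -3.17 (adjusted p = 9.78e-06). MMP2, a gelatinase, rose most at D20 (1.25, SE 0.11, adjusted p = 1.70e-06).

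Of 14 tested receptor partners and regulators, 4 passed at D1 (28.6% against 13.4% of all genes tested) and 6 at D20 (42.9% against 27.5%). PMEPA1, an inhibitor of the pathway that is itself a target of it, rose most on both days (1.26 and 1.41, adjusted p = 8.14e-04 and 1.37e-04). ACVRL1, a type I receptor that works with ENG in endothelium, fell most at D1 (-1.71, SE 0.20, adjusted p = 3.86e-05), and BAMBI, a decoy receptor, fell most at D20 (-1.12, SE 0.18, adjusted p = 2.30e-04). Of 6 signal transducers, SMAD3 fell on both days, from 323 ± 60.9 to 121 ± 11.1 cpm at D1 (-1.43, SE 0.17, adjusted p = 4.70e-05) and from 489 ± 13.2 to 136 ± 34.5 cpm at D20 (-1.84, SE 0.17, adjusted p = 2.22e-06). The study itself named SMAD3 from these samples, as it did SMAD2, SMAD7 and FN1 among others in the lists. It also measured the protein of ACTA2, so these genes are not independent. It found that protein raised with TGF-β at D20, and no cell stained for it after 1 day of treatment. The ACTA2 transcript was called for TGF-β at D1 and not at D20. Of 4 transcriptional repressors, SKIL rose most at D1 (1.42, SE 0.16, adjusted p = 3.09e-05) and TGIF1 at D20 (1.04, SE 0.11, adjusted p = 9.29e-06).

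The 2 genes whose profile was most similar to that of a tested member were found by Pearson's r of log2 cpm over the 12 libraries, which fall into 4 conditions, so the values only describe a shared pattern across conditions. LTBP2 was most like FBLN5, an elastic fibre protein, and BGN (r = 0.99 with either). FBLN5 held 361 ± 8.43 and 448 ± 28.9 cpm with TGF-β at D1 and D20, and 189 and 191 cpm on average without. TGFB2 was most like HIPK3, a kinase, and C1orf198 (0.99 and 0.98), and HIPK3 held 123 ± 3.39 cpm at D20 and 60.5 to 74.5 on average elsewhere. TGFBR2 was most like PDLIM1 and EPB41L5 (0.99 and 0.98), ENG like LONP2 and the fibroblast surface protein THY1 (0.97 with either), and TGFBR3 like GALM and ALDH3B1 (0.98 and 0.97). TGFB1 was most like CREB3L2 and FSTL3 (0.97 and 0.94), TGFBR1 like TRIB2 and KDM3A (0.97 and 0.96), LTBP1 like PTGFRN and IGFBP4 (0.97 and 0.96), and LTBP3 like PLXNB2 and ZC3H7B (0.99 and 0.98).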

How the data were processed

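RNA of 12 flasks was sequenced by the authors in paired ends on 4 lanes per library after a directional kit, trimmed with Trimmomatic, and mapped to hg19 (GRCh37) with Rsubread. Raw counts of 25702 genes in each lane were deposited, and log2 cpm made by voom for 9412 genes. The program that counted the reads, its annotation and its use of strand are not given in the sources used here. Lanes were summed, and 0 columns were left unassigned. Library totals bound the precision, and the errors between flasks include counting error.

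Counts were tested in R 4.3.3 with edgeR 4.0.16: TMM factors, a filter of 10 cpm in 6 or more libraries (9490 of 20434 genes with a count), the quasi-likelihood test with 4 condition means and Benjamini-Hochberg adjustment over all genes tested. A standard error is the absolute log2 fold change divided by the square root of F. Levels per kilobase used the canonical transcript of GENCODE 44 for GRCh37. Log2 cpm used a prior count of 2. Alternatives were RLE or no factors, no filter, filterByExpr, DESeq2 1.42.0, limma-voom (limma 3.58.1) on libraries or lanes, limma on the deposited log2 values, only the 6 libraries compared, each library left out, and a replicate block. Scripts were tested on simulated data.

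Genes named are the 10 members, in each list and TGF-β comparison the called gene with the largest rise and fall, and the 2 genes most like each member tested. Members and lists were chosen with earlier results of these data known.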

Additional observations from a re-analysis of the deposited data

Results flagged for a closer look

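The response to TGF-β differed between the days for 3 of the 9 genes tested, by the contrast of the D20 response minus the D1 response (edgeR, adjusted p under 0.01). Over all genes tested 10.4% passed in this contrast, and 5.87% were called lower. The difference was -2.16 for TGFB2, with responses of 0.32 at D1 and -1.84 at D20. Without D1 replicate 2 the D1 response was 0.87 and passed (adjusted p = 3.00e-04), and the difference was -2.70. For ENG it was -0.88, with responses of -0.10 and -0.98. For TGFBR2 it was -0.49, with responses of -0.02 and -0.51, and this call was lost without D20 replicate 2 or D20 replicate 3 (adjusted p = 0.0101 and 0.0105). In all 3 genes the untreated D20 flasks were the highest of the 12, so a high level without TGF-β and a fall with it at D20 rest on the same 3 flasks. No group had more than 3 flasks, so single flasks were not tested for standing apart.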

How the results depend on the processing

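Of 981 values of single genes under an alternative, 901 kept their direction and side of the threshold, 13 lost a call, 58 gained one and 9 changed sign. No call of LTBP2 or TGFB2 was lost under any of them. The calls gained include those of limma-voom on the 48 lanes. With the 48 lanes, which repeat the same RNA, as samples, limma-voom called 7 of 9 genes for TGF-β at D1 and 9 at D20 (41.4% and 54.8% of all genes tested), 8 between the treated days (60.8%) and 8 between the untreated days (62.6%). With only the 6 libraries compared, 8 were called for TGF-β at D20 and 5 between the treated days (31.3% and 38.4% of all genes tested). Leaving out each library gave 2 to 5 for TGF-β at D1, 4 to 8 at D20, 2 to 5 between the treated days, 2 to 5 between the untreated days and 2 to 3 for the difference of responses. Over all genes tested, the fit of all 12 libraries called 13.4%, 27.5%, 34.8%, 36.4% and 10.4% in that order. These shares moved too, as given above for the fit without D1 replicate 2. Values that changed sign were not called: leaving out each library, TGFBR2 in D1+ TGF-β vs D1 ranged from -0.0416 to 0.0144, LTBP2 in D20 vs D1 from -0.16 to 0.0724, and in the difference of responses TGFB1 from -0.46 to 0.0376, TGFBR1 from -0.35 to 0.11 (0.0645 without a composition factor) and LTBP1 from -0.0339 to 0.13. The cause was not tested. In counts not divided by length, TGFB1 took 82.7% and 39.1% of the ligands at D1 and D20 without TGF-β and 85.6% and 75.7% with it, TGFB2 15.4%, 59.3%, 13.4% and 22.8% in that order, and TGFB3 1.98% at D1 without TGF-β. Merged exon lengths, added after the data were seen, moved no share by over 1 SD. Same-numbered flasks gave 18 correlations from -0.22 to 0.32, 4 of them over 0.1. With 3 flasks a condition these values cannot settle whether the numbers pair the flasks, and the main fit left pairing out. With the replicate block 2, 5, 2, 4 and 3 genes were called, as many as in the main fit. Of the 10 genes TGFB3 alone failed the filter on low counts, with 9 to 43 reads a library.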

Other observations

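Genes around latency that were named after their values were seen also differed between the days. LTBP4, another latent TGF-β binding protein, held 102 ± 32.9 cpm at D1 and 190 ± 3.77 at D20 without TGF-β, and 72.8 ± 1.37 and 163 ± 20.8 with it (mean ± SD, n = 3). It was higher at D20 than at D1 by 0.90 on the log2 scale (SE 0.16, adjusted p = 4.38e-04), and by 1.16 (SE 0.17, adjusted p = 8.77e-05) between the treated conditions. FBN1, the main fibrillin of microfibrils, to which LTBPs bind, rose with TGF-β at D1 by 1.08 (SE 0.10, adjusted p = 4.77e-06), with a response smaller by 0.74 at D20 (adjusted p = 0.00189). ITGB8, an integrin subunit known for activating latent TGF-β, was higher at D20 than at D1 by 1.94 (SE 0.26, adjusted p = 4.13e-05) and at D20+ TGF-β than at D1+ TGF-β by 2.21 (SE 0.28, adjusted p = 3.45e-05).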
